A study of Brassica napus with 18 samples.

Results

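Gene models with transcripts in a single accession of oilseed rape (Brassica napus) were collected from shoot apices of 6 field-grown accessions. A gene model was a member when it had at least 2 CPM (counts per 1000000 counts of the library) in all 3 libraries of an accession and at most 5 counts summed over the 15 libraries of the other 5 accessions. The rule found 106 of 107233 gene models. Their levels were used to choose them, so levels inside and outside the expressing accession are a description and carry no test. The 18 poly(A)-selected libraries came from R5044, R5159 and R5161, which carry haplotype 1 of BnaC3.LFY, and from R4168, R4210 and R4817, which carry haplotype 2. BnaC3.LFY is the copy of LEAFY, a regulator of floral meristem identity, on chromosome C03. The labels give neither the plants' age or stage nor the origin of the 3 libraries of an accession (separate plants, pools or repeat preparations), so p-values measure the spread between these libraries, which may be technical.

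Oilseed rape is an allotetraploid that holds an A and a C subgenome, derived from the ancestors of Brassica rapa and Brassica oleracea. Accessions of the species are known to differ in gene content, and exchanges between matching A and C chromosomes can replace a stretch of one with a copy of the other. Reads are counted against the gene models of a single reference, so a model without counts can lack the gene, carry a diverged copy or be silent in the sampled tissue, and these cannot be told apart from counts. In such bulk samples, fewer cells of a type and less RNA per cell cannot be told apart either. The identifiers were not paired with gene names (0 matches in the RefSeq table of the Da-Ae assembly), so no role can be given for any member, and the tissue could not be checked against marker genes.

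The libraries of R4817 stood apart from each other, which bears on its members. At 5 CPM or more in a library and 0 counts in another of the same accession, R4817 libraries 1 and 2 differed in 341 gene models, while the next most different pair within another accession, R5159 libraries 1 and 2, differed in 80. Of the 341 models, 199 had transcripts in library 1 and 142 in library 2. Library 3 held all of them, at a median of 0.471 times the CPM of library 1 for the first set and 0.524 times that of library 2 for the second. In 340 of the 341 models, library 3 had fewer CPM than the library with counts. This comparison was made after the data were seen, and its cause was not tested. Whether library 3 is independent of libraries 1 and 2 was not tested either, so the SDs with n = 3 and the edgeR calls for R4817 rest on treating it as a separate replicate. Because a member needs 2 CPM in every library of its accession, models detected in only some of the R4817 libraries are not among its members. R4817 had 45 models at 2 CPM or more in 2 of its 3 libraries and at most 5 counts elsewhere, against 6 to 10 in the other accessions. Library 1 was the missing one in 23 of the 45, with 0 counts in 13 of them, and library 2 in 20, with 0 counts in 12.

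**Figure D1:**
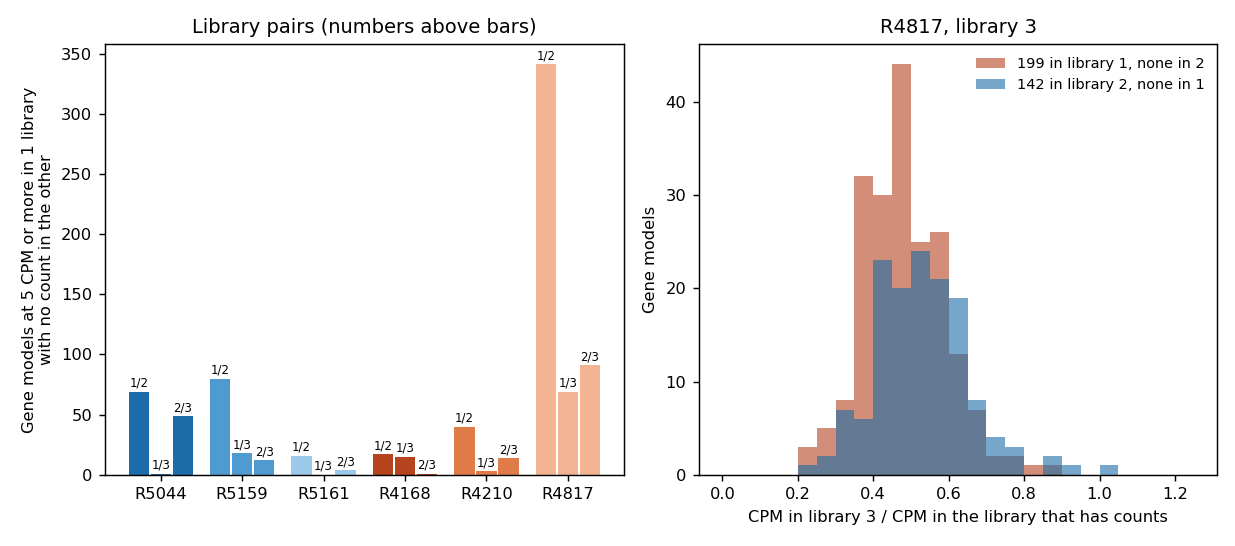
Left, the number of gene models (y axis) at 5 CPM or more in 1 library and with no count in the other, for the 3 library pairs of each accession, named above the bars as library numbers. The R4817 pair of libraries 1 and 2 reaches 341. Right, for those 341 models, the CPM in R4817 library 3 divided by the CPM in the library that has counts (x axis) against the number of models (y axis); the ratios run from 0.214 to 1.04, with medians of 0.471 and 0.524.

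The members were spread unevenly over the accessions. R5044 had 22, R5159 had 10, R5161 had 16, R4168 had 15, R4210 had 15 and R4817 had 28. Without R4817 library 1 that accession had 51 members, and without library 2 it had 48. Haplotype 1 accessions held 48 members and haplotype 2 accessions 58. Set against the gene models at 2 CPM or more in all 3 libraries of an accession, which numbered 31972 to 34732, members came to between 0.313 per 1000 in R5159 and 0.811 per 1000 in R4817. Counted by the same thresholds, 94 models had transcripts in exactly 2 accessions, 171 in 3, 155 in 4, 665 in 5 and 24976 in all 6. The 94 models shared by 2 accessions included 60 in the 6 pairs of equal haplotype and 34 in the 9 pairs of unequal haplotype, with 28 in R4168 and R4210 alone.

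**Figure D2:**
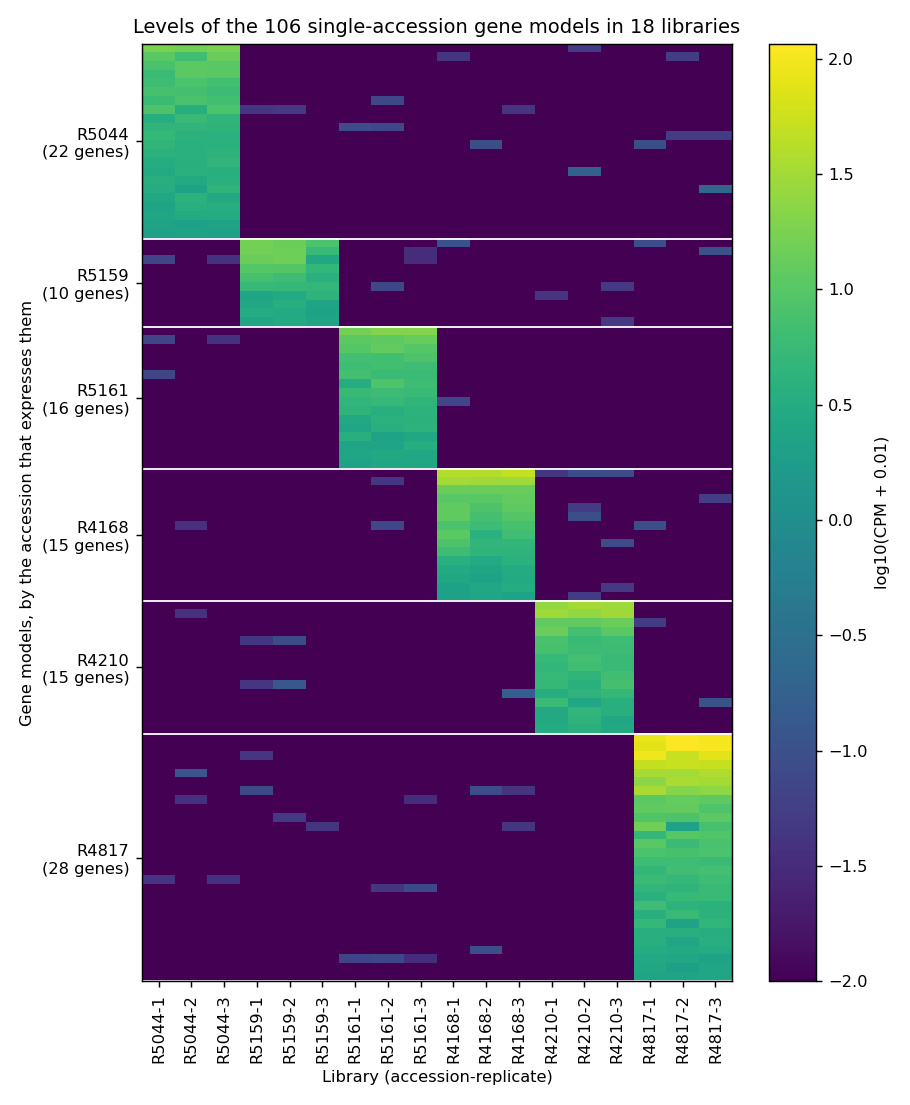
Colour gives log10(CPM + 0.01) of each of the 106 members (rows, grouped by expressing accession and ordered by mean CPM) in the 18 libraries (columns, accession and replicate). Each block of 3 columns stands out for its own accession, and the faint cells elsewhere are the 115 counts found outside.

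Outside the expressing accession the members were close to absent. In 63 of the 106 the other 15 libraries held 0 counts, in 12 they held 1, in 12 they held 2, in 5 they held 3, in 6 they held 4 and in 8 they held 5. Over the pooled total of the 15 other libraries, 5 counts amounted to 0.0107 to 0.0116 CPM, depending on the accession, and 0 counts allow up to 3. Over all members, 91195 counts lay in the expressing accessions and 115 elsewhere, 1.26 per 1000. Of the 43 members with a count elsewhere, 23 had it in 1 other library, 14 in 2 and 6 in 3. Libraries of the same haplotype held 50 of the 115 counts (43.5%), beside 39.7% of the depth of the other libraries. R4168 members had 15 of 19 such counts in the other haplotype 2 accessions (33.2% of the depth), 12 of them in R4210. Of these 12, 5 fell on a single gene, BnaC09T0581700ZS. R4817 members had 6 of 28 in the other haplotype 2 accessions (36.0% of the depth) and 0 in R4210. The rule held each gene to 5 counts, so these shares rest on few genes.

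Levels of most members were low. CPM are not divided by gene length, so the order of members by CPM is an order of read counts and not of transcript number. The mean over the 3 libraries ran from 2.15 to 101 CPM with a median of 5.75. It was under 5 CPM in 47 members and at least 10 CPM in 26. The median was 4.21 CPM in R5044, 5.47 in R5159, 5.24 in R5161, 7.22 in R4168, 5.71 in R4210 and 7.13 in R4817. Over all models at 2 CPM or more in the 3 libraries of an accession, the median lay between 12.1 CPM (R4210) and 13.2 CPM (R5159). Members of haplotype 1 accessions had a median of 4.51 CPM, with 8 of 48 at 10 CPM or more, and members of haplotype 2 accessions had a median of 6.17 CPM, with 18 of 58. Summed over members, R4817 had 539 CPM and the other accessions between 66 in R5159 and 157 in R4168.

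**Figure D3:**
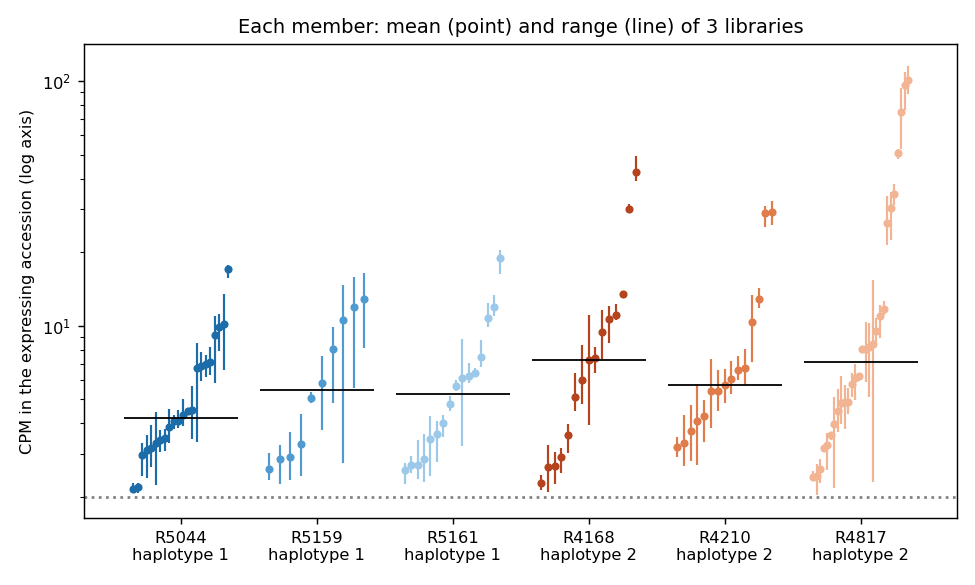
CPM in the expressing accession (log axis) for each member, with a point for the mean and a line for the range of its 3 libraries, by accession (x axis). Black bars are medians, from 4.21 in R5044 to 7.22 in R4168, and the dotted line marks 2 CPM. The highest 2 points, at 101 and 96.8 CPM, belong to R4817.

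R4817 held the members with the most reads. BnaA10T0124600ZS, on chromosome A10, had 88.2, 116 and 100.1 CPM in the 3 R4817 libraries and 0 counts in the other 15. BnaA10T0124700ZS, the next gene model on A10, had 76.3, 109 and 105 CPM and again 0 counts elsewhere. Library 1 was the lowest in both. Against a floor of 3 counts over the other 15 libraries, the R4817 levels were at least 15829-fold and at least 15069-fold higher. Both bounds cover counting error only.

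In R4210 the leading members were BnaC03T0467700ZS on C03, with 25.9, 32.4 and 29.5 CPM and 0 counts elsewhere, and BnaA05T0326200ZS on A05, with 30.5, 25.3 and 30.9 CPM and 1 count elsewhere. For the first, the level in R4210 was at least 4415-fold higher than the same floor. Library 1 was the lowest of the 3 R4210 libraries for the first gene and library 2 for the second. In R4168, BnaC09T0581700ZS had 39.2, 39.1 and 49.3 CPM, with 5 counts elsewhere, all of them in the other haplotype 2 accessions. BnaC09T0268500ZS had 31.3, 29.3 and 29.8 CPM in R4168 and 1 count elsewhere. Another C09 member of R4168, at gene number 3202, had 13.6, 13.7 and 13.3 CPM, and its coefficient of variation of 1.51% was the lowest of all members.

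The haplotype 1 accessions had lower leading members. In R5161, BnaC02T0132300ZS on C02 had 16.4, 20.2 and 20.4 CPM and 0 counts elsewhere, at least 2718-fold higher than 3 counts over the other libraries. BnaC08T0043000ZS on C08 had 11.0, 11.5 and 13.3 CPM in R5161 and 3 counts elsewhere. In R5044, BnaC06T0033400ZS on C06 had 17.7, 15.8 and 17.8 CPM and 1 count elsewhere. BnaA01T0071300ZS on A01 varied more, with 10.6, 6.59 and 13.5 CPM in R5044 and 2 counts elsewhere. In R5159, BnaA09T0486300ZS on A09 had 16.5, 13.8 and 8.12 CPM and 5 counts elsewhere, and BnaC02T0392300ZS on C02 had 15.8, 14.5 and 5.56 CPM and 3 counts elsewhere. In both R5159 genes library 3 lay well below the other 2 libraries.

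Agreement among the 3 libraries differed by accession. The median coefficient of variation of members was 14.1% in R5044, 31.5% in R5159, 11.7% in R5161, 13.9% in R4168, 17.7% in R4210 and 15.3% in R4817, beside 11.0% to 18.8% for all models at 2 CPM or more in these accessions. Members whose highest library exceeded the lowest by over 2-fold numbered 13 of 106 (12.3%), against 7.92% of all such models. In R5159 they were 5 of 10, against 15.3% of all its models at that level. The ratios of these 5 were 2.03, 2.85, 5.36, 2.04 and 2.02. Library 3 of R5159 was the lowest in 9 of the 10 members, and it also had the lowest scaling factor of all libraries by the trimmed mean of M-values (TMM), at 0.917. The CPM, also those behind the 15.3%, leave out this factor, which places library 3 lower against the other R5159 libraries. Whether the ratios near 2 pass the limit depends on that. The widest range was that of an R4817 member at gene number 3598 of C02, with 15.4, 2.30 and 7.47 CPM and 2 counts elsewhere. In 16 of the 28 R4817 members library 3 lay between libraries 1 and 2.

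Members lay on 18 of the 19 chromosomes and on 1 scaffold. The A subgenome held 47, the C subgenome 58 and the scaffold 1, a member of R5161. C chromosomes thus carried 55.2% of the 105 members on chromosomes, near their 52.0% of models at 2 CPM or more and 54.2% of all chromosome models. By accession the C subgenome held 13 of 22 members in R5044, 3 of 10 in R5159, 9 of 16 in R5161, 8 of 15 in R4168, 6 of 15 in R4210 and 19 of 28 in R4817. The densest chromosomes were A10, with 9 members (7.16 per 1000 models at 2 CPM or more, averaged over accessions), C02 with 10 (7.14), A01 with 9 (5.69) and C06 with 9 (5.55). C09 also had 10 (4.87). These rates set the members of all 6 accessions against the models of an average accession, unlike the rates by accession given earlier. As shares, A10 held 8.49% of members and 3.71% of models at 2 CPM or more. For C02 the shares were 9.43% and 4.13%, for A01 8.49% and 4.67%, for C06 8.49% and 4.78%, and for C09 9.43% and 6.06%. A07 had 0 members, A08 had 1, and A05 and C05 had 2 each. C04 was shared most widely, with members in 5 accessions, while on C03 all 6 members came from R4168 (2) and R4210 (4). Along the chromosomes, 18 of 105 members (17.1%) lay among the outermost 10% of gene models at either end, beside 21.0% of models at 2 CPM or more.

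R4817 members made up 8 of the 10 on C02, and those were its largest group on any chromosome. Of the 8, 3 were consecutive gene models numbered 4927, 4928 and 4929. They had 8.06 ± 2.27, 26.4 ± 6.72 and 74.7 ± 20.6 CPM in R4817 (mean and SD, n = 3 libraries) and 0, 5 and 1 counts elsewhere. Library 1 was the highest and library 2 the lowest for each of the 3. Directly adjoining members were otherwise found as pairs. These were the A10 pair of R4817 described above, C09 numbers 1504 and 1505 in R5044 (4.07 ± 0.251 and 7.0 ± 0.715 CPM, n = 3), and C03 numbers 7396 and 7397 in R4210 (6.07 ± 0.976 and 5.71 ± 0.901 CPM, n = 3). All members of these 3 pairs had 0 counts outside their accession. A further 3 pairs of one accession lay within 20 gene numbers, on A04 in R5161 (660 and 663), C06 in R5044 (3036 and 3053) and C02 in R4817 (1969 and 1984).

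The gene models beside the members were examined next, since the rule did not pick them by their counts. Their counts still decided whether they passed a filter on low counts and whether they were skipped as members of the same accession. A fit of all 18 libraries covered the 58143 models that passed a filter on low counts, among them all 106 members, for which no test is given because a member had to differ. For each member the nearest tested model on either side that was not itself a member was taken, giving 199 neighbours. With edgeR's quasi-likelihood test of the accession against the mean of the other 5, at a Benjamini-Hochberg adjusted p under 0.05, 76 neighbours (38.2%) were higher and 26 (13.1%) were lower in the member's accession. Over all tested models the share called higher was 24.6% and the share called lower 15.2%, weighted by the number of neighbours of each accession. A difference of at least 2-fold was reached by 55 higher neighbours (27.6%, background 15.4%) and 13 lower neighbours (6.53%, background 7.91%). In these calls the mean of the other 5 is a mean of log levels, which a single low accession can pull down. Some of the 55 higher neighbours thus had fewer CPM in the member's accession than the other accessions had on average.

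The share of higher neighbours lay above the background in 5 accessions and below it in R5159. Higher neighbours numbered 17 of 42 in R5044 (40.5%, background 20.2%), 4 of 20 in R5159 (20%, background 25%), 15 of 29 in R5161 (51.7%, background 24.6%), 11 of 30 in R4168 (36.7%, background 23.2%), 9 of 28 in R4210 (32.1%, background 27.7%) and 20 of 50 in R4817 (40%, background 27.1%). Lower neighbours were 8 of 42 in R5044 (background 13.5%), 4 of 20 in R5159 (16.7%), 1 of 29 in R5161 (17.8%), 3 of 30 in R4168 (13.4%), 8 of 28 in R4210 (19.7%) and 2 of 50 in R4817 (13.2%). Without R4817 library 1 or library 2 the higher share in R4817 was 34%, and without library 3 it was 32%. Differences between accessions in these shares were not tested.

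Neighbours higher by at least 2-fold were most frequent beside members of R5161, at 11 of 29 (background 13%), and numbered 13 of 42 in R5044 (10.9%), 1 of 20 in R5159 (13.3%), 6 of 30 in R4168 (15.9%), 9 of 28 in R4210 (19.1%) and 15 of 50 in R4817 (19.3%). In R4210 all 9 higher neighbours were thus past 2-fold. Neighbours lower by at least 2-fold numbered 6 of 42 in R5044 (background 8.24%), 0 of 20 in R5159 (10.2%), 0 of 29 in R5161 (11%), 3 of 30 in R4168 (5.88%), 4 of 28 in R4210 (10%) and 0 of 50 in R4817 (4.98%). R5159, R5161 and R4817 had none of this kind.

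**Figure D4:**
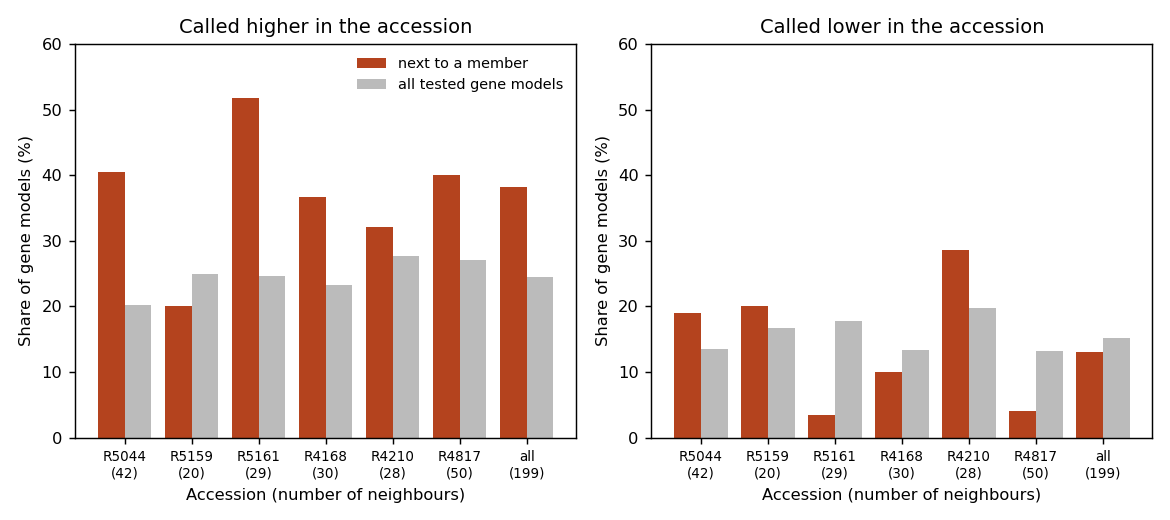
Share of gene models called higher (left) or lower (right) in an accession against the mean log level of the other 5 (edgeR, adjusted p under 0.05). Red bars are the tested models next to members and grey bars all tested models. Over all accessions 38.2% of neighbours and 24.6% of all models were higher, and 13.1% of neighbours and 15.2% of all models were lower.

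A neighbour can be higher than the mean of the other accessions because another accession is low, so its rank was also taken, a measure added after the data were seen. In 44 of the 199 neighbours (22.1%) the model was called higher and had the highest mean of the 6 accessions, beside 12% of all tested models. In 16 (8.04%) it was at least 2-fold above each of the other 5, beside 1.61%. By accession the higher and highest neighbours were 11 of 42 in R5044 (background 9.11%), 2 of 20 in R5159 (12.3%), 11 of 29 in R5161 (14%), 3 of 30 in R4168 (10.4%), 6 of 28 in R4210 (15.8%) and 11 of 50 in R4817 (11.9%). Those at least 2-fold above each of the other 5 were 5 in R5044 (background 1.06%), 0 in R5159 (0.951%), 4 in R5161 (1.39%), 0 in R4168 (1.53%), 2 in R4210 (2.57%) and 5 in R4817 (1.97%). Neighbours called lower with the lowest mean of the 6 accessions numbered 14 of 199 (7.04%, weighted background 9.74%). They were 4 in R5044 (background 7.65%), 3 in R5159 (11.9%), 1 in R5161 (12.4%), 2 in R4168 (8.46%), 4 in R4210 (14.5%) and 0 in R4817 (7.2%).

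A few neighbours were themselves all but absent elsewhere. With at most 5 counts in the other 15 libraries there were 5 of 199 (2.51%), beside 0.0669% of tested models that were not members. Such models pass the filter on low counts only through the accession that expresses them, so their calls and these shares are a description and not a test. All 5 count among the 76 higher neighbours, the 55 past 2-fold and the 16 at least 2-fold above each other accession. They lay at C06 number 3037 in R5044, C01 numbers 665 and 685 and C08 number 3918 in R5161, and C02 number 4926 in R4817. C01 numbers 665 and 685 belong to the C01 run described further below. The means of the 5 ran from 0.491 to 1.59 CPM in these accessions, below the 2 CPM of the rule.

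The share of higher calls was largest for the nearest tested model. At the second to the fifth tested model from a member 28.5% were called higher, and from the sixth to the tenth 29.5%, both above the 24.6% of all models. By single distance the share ran from 25.3% at the second model to 32.8% at the third, and it did not fall steadily with distance. Immediately adjoining models of the table, tested or not, had 0 counts in all 18 libraries in 50 of 210 cases (23.8%), beside 18.04% for the models adjoining all tested models and 26.4% for those adjoining all gene models. All members are tested models, which makes 18.04% the like comparison. The pooled share beside members lay above it, and this difference was not tested. By accession the share ran from 13.6% in R5044 (6 of 44), below 18.04%, to 40% in R5161 (12 of 30).

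Wider stretches shifted together around a few members. The median log2 difference of the 10 nearest tested models on each side, relative to all models, was at least 0.5 in 17 of 105 members (16.2%, background 9.94%) and at most -0.5 in 5 (4.76%, background 6.88%). Members close together share these models, as in the A10 pair of R4817, so the 17 are not all separate stretches. They were 8 of 28 in R4817 (background 11.3%), 3 of 22 in R5044 (7.88%), 3 of 15 in R5161 (9.37%) and 2 of 15 in R4168 (9.46%). R5159 had 0 of 10 (10.1%) and R4210 had 1 of 15 (11.4%), both below background. The median difference reached 1 or more in either direction for 8 members. Around 6 of these 8 the other accessions were uneven, and in 5 of the 6 the difference was positive. Around the R5161 member at C02 number 1323, the 20 models together had 237 ± 6.0 CPM in R5161, 34.7 ± 8.62 in R5044 and 170.9 to 227 in the remaining accessions (n = 3 libraries each). Around the R5044 member at A01 number 3776 their sum was 382 ± 16.8 CPM in R5044, while it was 0.379 ± 0.150 CPM in R5159 and 401 to 730 in the rest. The R4817 members at C02 number 2394 and A01 number 3258 likewise had a single low accession nearby, with sums of 448 ± 18.9 CPM in R4817 and 68.3 ± 11.1 in R5044 at the first, and of 346 ± 9.83 CPM in R4817 and 25.2 ± 5.59 in R5161 at the second. Around the R5044 member at C09 number 311, R5044 had 173 ± 49.6 CPM, while R5161 had 13.1 ± 0.627 and R4210 had 10.7 ± 1.93. R5159 had 125 ± 5.94 and R4168 had 261 ± 9.64 CPM in that stretch, and R4817 had 87.4 ± 72.4 CPM, with an SD nearly as large as its mean. In these 5 stretches, then, the member's accession was not the only one with transcripts.

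One member stood in a stretch that was low in its own accession. The R4168 member at C03 number 186 had 2.12, 2.46 and 2.23 CPM in R4168 and 1 count elsewhere. The 20 tested models around it had a median log2 difference of -5.82 relative to all models. By edgeR at an adjusted p under 0.05, 18 of them were lower and 0 higher in R4168. Over all tested models 13.4% were lower and 23.2% higher in R4168. The stretch was picked by the median of these same 20 models, so their calls describe it and are not a test. The sum of the 20 models was 34.8 ± 1.68 CPM in R4168. It was 45.7 ± 3.81 CPM in R4210, and between 246 and 302 CPM in the other 4 accessions (n = 3 libraries each).

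On C01, R5161 had a run of transcripts that the other accessions all but lacked. Its members at gene numbers 663 and 694 bounded 32 models of the table, bounds that were chosen once the values were known. The first had 6.95, 6.78 and 8.73 CPM and the second 2.26, 2.69 and 2.75 CPM in R5161, with 0 counts elsewhere. Between them 12 other models were tested, and edgeR called all 12 higher in R5161 than the mean of the other 5 accessions. Their means in R5161 ran from 0.491 to 7.89 CPM with a median of 1.72. In 7 of the 12 all 15 other libraries held 0 counts, so these passed the filter on low counts only through R5161. The calls are therefore a description of the run and not a test. The highest mean of another accession was 1.26 CPM, in R5159. Of the 32 models, 8 had no count in any library. From number 637 to 662 the 15 tested models summed to 356 CPM in R5161 and 296 to 412 in the others, with 5 called higher and 2 lower in R5161. From 696 to 718 the 15 tested models summed to 220 CPM in R5161 and 136 to 168 in the others, with 7 called higher and 2 lower. Over all tested models 24.6% were called higher and 17.8% lower in R5161.

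**Figure D5:**
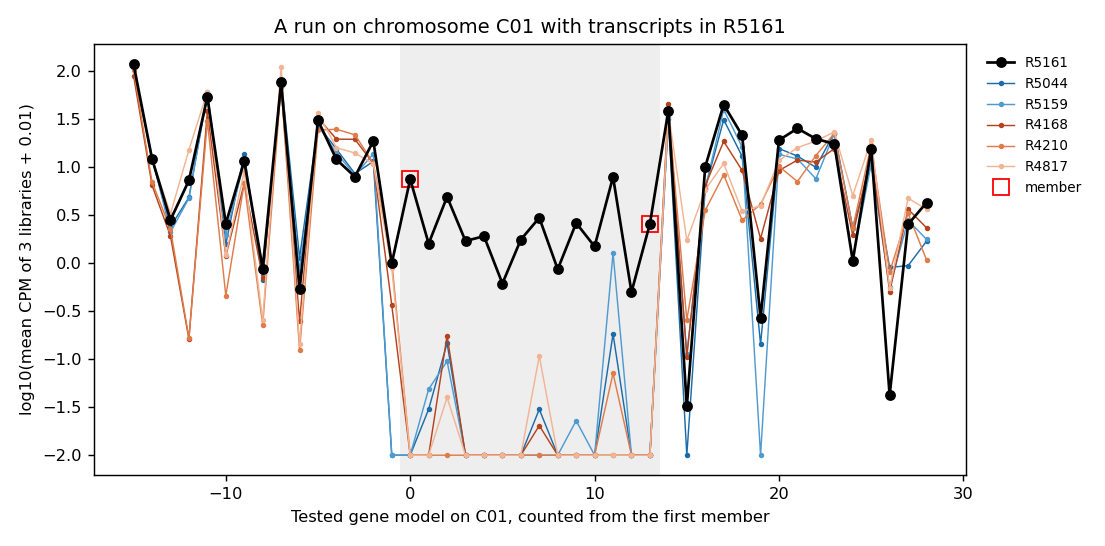
Mean CPM of 3 libraries as log10(CPM + 0.01) for tested models of chromosome C01, counted from the first R5161 member (x axis), in R5161 (black) and the other accessions. In the shaded run the 14 tested models have transcripts in R5161, while the other accessions lie below R5161 in each of them, at the lower limit in most and up to 1.26 CPM (R5159) in the others. Outside it all 6 accessions have transcripts in most models, with a few models at the lower limit in R5044 or R5159.

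Shorter runs of the same kind were sought with a lower level, again after the data were seen. With at least 30 counts over the 3 libraries of an accession and at most 5 elsewhere, 656 models were found on chromosomes, 105 of them members. By accession they numbered 93 in R5044, 75 in R5159, 95 in R5161, 75 in R4168, 118 in R4210 and 200 in R4817. Runs of at least 3 such models, with steps of at most 20 gene numbers, numbered 4 in R5044, 1 in R5161, 5 in R4817 and 0 in R5159, R4168 and R4210. More models leave more room for runs, and differences between accessions in the number of runs were not tested. Together the runs held 43 models, 12 of them members. The C01 run of R5161 had the most models, 12, namely both members and 10 others that met this count rule, with sums of 22.1, 24.2 and 23.6 CPM in the 3 R5161 libraries and a mean of at most 0.0516 CPM in any other accession. In R4817 the run at C02 numbers 4926 to 4932 had 5 models, 3 of them the consecutive members above, which summed to 139, 81.7 and 112 CPM. Another R4817 run, at A01 numbers 3297 to 3299, held 0 members and had 6.13 CPM in library 1, 0 in library 2 and 1.18 in library 3. In R5044, the run at A06 numbers 1778 to 1801 had 4 models with 10.3, 14.6 and 14.9 CPM, 1 of them a member.

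Near the thresholds, the lowest library of 21 members lay between 2 and 2.5 CPM, and 34 models with at most 5 counts elsewhere had a lowest library of at least 1.5 but under 2 CPM, the highest at 1.97. On the other side, 14 members had 4 or 5 counts elsewhere, and 19 models at 2 CPM or more in an accession had 6 to 10. The number of members thus depends on both limits.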

How the data were processed

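The deposited values are raw counts, whole numbers by gene model, in 1 table of 18 libraries. The submitters' processing notes name HISAT2 2.2.1 and featureCounts. Not given in the sources used here are the build, annotation and strand setting, or how multi-mapping reads were handled, so similar A and C copies may share reads. Columns were matched to samples by accession and replicate (0 columns of other series). Totals ran from 21960992 to 41459636 counts per library. Identifiers give a chromosome and gene number, and positions are gene numbers, not bases. The rule was applied to CPM from column totals in Python 3.11.15 (pandas 2.3.3, numpy 2.4.6, scipy 1.17.1). Models passing filterByExpr by accession (58143) were fitted with edgeR 4.0.16 in R 4.3.3 (TMM, 1 coefficient per accession, no replicate block). The quasi-likelihood test set each accession against the mean of the other 5 on the log scale. DESeq2 1.42.0 was an alternative. The scripts were tested on simulated data. Members, named genes (the 2 with the highest mean CPM per accession; gene numbers given beyond these were chosen after their values were seen) and tests were chosen with earlier results of these data known. Marker lists could not be matched and were not analysed here. Intervals and floors cover counting error only.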

Additional observations from a re-analysis of the deposited data

Results flagged for a closer look

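Of 10 measures compared over the 6 accessions, 5 had an accession far from the others by Dixon's criterion, which chance meets in about 1 of 20 groups. The measures are not independent: 3 of the 5 count models that differ between the R4817 libraries, and the others are levels that the choice of members used, so they are a description and not a test. R4817 had 45 models at 2 CPM or more in 2 of its 3 libraries with at most 5 counts elsewhere, against 6 to 10 in the other accessions, and 31 at that level in 1 of its 3 libraries, against 7 to 15. Summed over its 3 library pairs, R4817 had 501 models at 5 CPM or more in 1 library and 0 counts in another. The summed mean CPM of the R4817 members was 539, of which the A10 pair gave 101 and 96.8, against 66 to 157 elsewhere. The median coefficient of variation of the R5159 members was 31.5%, against 11.7% to 17.7%, with library 3 lowest in 9 of 10.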

How the results depend on the processing

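The total of 106 members depended on the thresholds. A minimum of 1 CPM gave 184 (37 in R5044, 17 in R5159, 33 in R5161, 31 in R4168, 28 in R4210), and a minimum of 5 CPM gave 45 (7, 2, 7, 7 and 7 in that order, and 15 in R4817), with 65.9% on the C subgenome. Allowing 0 counts elsewhere gave 63 (13 in R5044, 4 in R5159, 6 in R4168, 9 in R4210, 18 in R4817), and allowing 10 gave 125. TMM library sizes gave 106, thinning to the shallowest library 112, and leaving out models with a dot suffix 106. With 1 library left out the total ran from 107 to 132 and R4817 from 28 to 51. Added after the data were seen, 2 CPM in at least 2 of 3 libraries gave 189 (17 in R5159, 23 in R4168, 73 in R4817). Leaving out all R4817 libraries gave 158 (46 in R5044, 22 in R5159, 28 in R5161, 26 in R4168, 36 in R4210), with 12 libraries in place of 15 behind the limit of 5 counts.

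The share of neighbours called higher was 35.2% with DESeq2 (background 24.6%), 38.2% with DESeq2 size factors in edgeR, 32.1% with 3 neighbours on each side (21.7% at 2-fold or more) and 33.2% to 39.2% with 1 library left out. For the neighbours of R4817 members alone it ran from 32% to 40% with 1 library left out. Counts of genes higher or lower in each accession stayed within 1.5 times in all 22 alternatives. Equal replicate numbers did not pair the libraries: over 45 pairs of equal number the median correlation of deviations was 0.003 and 2 were over 0.1, and 8 of 18 libraries correlated best with their own number. With the replicate block 37.7% of neighbours were higher, and 11502 genes were higher in R5044, against 11745 without it. Where the 15 other libraries held 0 counts, a level of up to 3 counts over them is compatible with that depth.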
